A study of Rattus norvegicus with 8 samples.

Results

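The core circadian clock of the liver was described through 10 genes, Bmal1, Npas2, Clock, Nr1d1, Nr1d2, Dbp, Per1, Per2, Per3 and Cry1, chosen by symbol. All 10 were found among the 14511 genes measured, each by 1 probe set that carries that symbol alone. The RNA came from livers of female rats of the outbred Wistar stock and was hybridised to 8 Affymetrix arrays, 2 for each of 4 groups. One group is the liver left 8 h after an operation that took out 2/3 of the organ (partial hepatectomy, PH). The other 3 groups are livers of unoperated rats aged 2, 4 and 12 weeks. All animals were kept under a photoperiod of 12 h. The sources used here give neither the age of the operated rats nor the time of day at which livers were taken, and sham-operated rats were not analysed here. Surgery, age and time of day therefore cannot be told apart in the comparisons with PH. Age and time of day cannot be told apart in those among unoperated rats. By their titles the paired arrays are biological replicates, whereas the design text says that samples were run in duplicate. The p-values thus rest on the spread between the 2 arrays of a group, pooled over the 4 groups, which may be partly technical. The SE of a comparison therefore also carries the spread of groups outside it.

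In mammals the clock is a loop of transcription factors that returns about once a day. BMAL1 pairs with CLOCK, or with its relative NPAS2, and this pair switches on genes that carry an E-box, among them the Per, Cry, Nr1d and Dbp genes. PER and CRY proteins then inhibit the pair, while the nuclear receptors NR1D1 and NR1D2 (REV-ERB alpha and beta) bind RORE sites and repress Bmal1 and Npas2. DBP, a transcription factor of the PAR family, acts on D-box sites and passes the rhythm on to liver metabolism. In liver, Bmal1 and Npas2 therefore peak at another time of day than Nr1d1, Dbp and the Per genes.

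The sites named above can be read in the start regions of 3 members. The windows run from 250 bases before to 50 bases after an annotated start (RefSeq, GRCr8, read 5′ to 3′ on the gene's own strand). Capitals mark the motifs. Bmal1 (chr1:176766078-176766377, plus strand) is shown for its paired RORE cores, Nr1d1 (chr10:84229405-84229704, minus strand, the inner of 2 annotated starts) for its E-box, and Per2 (chr9:99496944-99497243, minus strand) for a D-box and an E-box variant.
Bmal1: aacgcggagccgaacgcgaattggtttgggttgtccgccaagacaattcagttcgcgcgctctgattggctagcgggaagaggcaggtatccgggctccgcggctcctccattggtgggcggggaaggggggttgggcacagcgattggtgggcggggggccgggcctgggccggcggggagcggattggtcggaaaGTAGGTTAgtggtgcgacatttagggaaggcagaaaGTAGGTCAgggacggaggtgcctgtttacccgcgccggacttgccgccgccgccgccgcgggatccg
Nr1d1: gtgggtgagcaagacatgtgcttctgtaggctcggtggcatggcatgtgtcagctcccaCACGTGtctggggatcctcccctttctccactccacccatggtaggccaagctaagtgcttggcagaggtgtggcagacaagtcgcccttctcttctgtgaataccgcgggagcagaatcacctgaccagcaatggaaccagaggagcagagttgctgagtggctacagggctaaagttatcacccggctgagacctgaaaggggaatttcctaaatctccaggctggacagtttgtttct
Per2: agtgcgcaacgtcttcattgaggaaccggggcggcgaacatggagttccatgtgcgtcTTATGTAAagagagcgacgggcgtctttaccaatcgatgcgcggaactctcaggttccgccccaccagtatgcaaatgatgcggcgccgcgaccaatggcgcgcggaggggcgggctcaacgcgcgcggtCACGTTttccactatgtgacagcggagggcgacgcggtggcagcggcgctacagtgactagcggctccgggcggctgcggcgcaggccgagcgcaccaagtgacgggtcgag

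Motifs were searched on both strands in the 11 windows that RefSeq lists for 9 members. Cry1 was the member without one. Some of the spellings were chosen after these windows had been read, so the matches are a description. The Bmal1 window held the RORE core GTAGGTCA, which begins 17 bases before the start, and the variant GTAGGTTA, which begins 53 bases before it. Of 33469 windows of the same length, 0.598% held the first and 0.305% the second. The inner Nr1d1 window held the E-box CACGTG 191 bases before the start, as did 6.42% of all windows. The outer Nr1d1 window (chr10:84231763-84232062) held the variant CACGTT on the opposite strand. In the Per2 window the variant CACGTT, present in 4.83% of windows, began 62 bases and the D-box TTATGTAA, present in 0.893%, 192 bases before the start. None of these letters, nor the CRE TGACGTCA (1.83% of windows), were found in the windows of Npas2, Clock, Nr1d2, Dbp, Per1 and Per3. Sites outside the windows of 300 bases, or with other spellings, were not searched, so these genes cannot be said to lack them. The motifs do not overlap in these windows.

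The deposited levels are log2 values from RMA, so a difference of 1 is a factor of 2 and levels of different probe sets cannot be set against each other. The 9 hepatocyte markers averaged between 13.28 and 13.45 on every array. Albumin (Alb) lay between 14.10 and 14.19, close to the highest value in the table (14.23). Single markers moved more, such as Apoa2 at 10.30 and 10.38 at 2 weeks and 12.01 to 12.81 on the other arrays. The arrays of a group correlated across genes with r between 0.952, at 12 weeks, and 0.980, after PH, and genes are not independent replicates. The pair at 12 weeks stood furthest apart: 12.67% of genes differed by at least 1 between its arrays, against 2.98% after PH, 3.31% at 2 weeks and 4.28% at 4 weeks. The 1255 odorant, pheromone and trace amine receptor genes, whose products serve smell, had a median of 4.64 and 4.17 on the PH arrays, lay between 4.01 and 4.06 on the arrays of 2 and 4 weeks, and had 4.74 and 3.91 at 12 weeks. These are whole-tissue samples, in which fewer cells of a type and less RNA per cell cannot be told apart.

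The clock genes were among the more variable genes of the series. Over the 8 arrays, 7 of the 10 ranged over at least 2 log2 units, while 6.61% of all genes did, and their median range was 2.99 against 0.88 for all genes. The plot of levels by array shows where this range lies. After PH, Bmal1 was at its lowest and Dbp at its highest. At 4 weeks Nr1d1 was high on both arrays, and at 12 weeks the arrays of the pair disagreed on most of the loop.

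**Figure D1:**
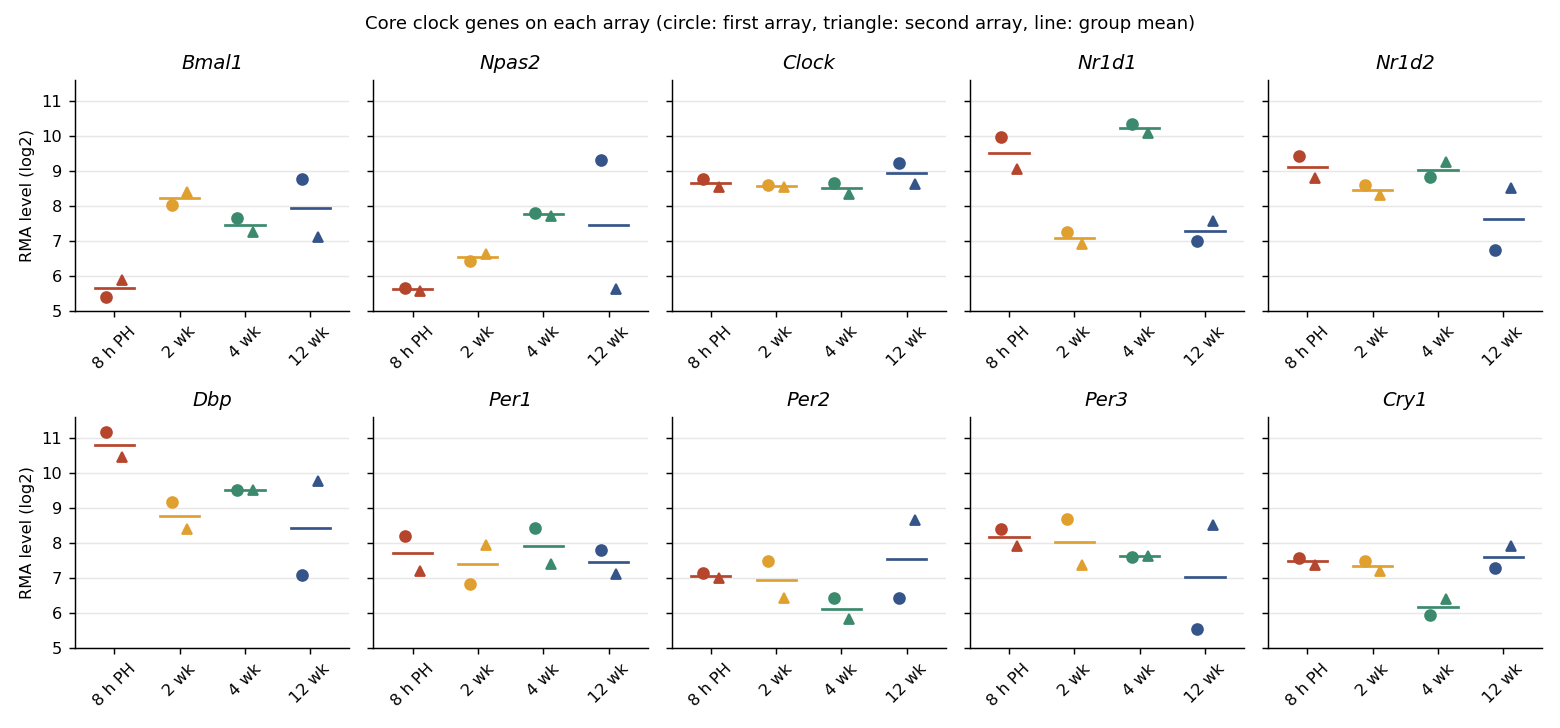
RMA levels (log2, vertical axis) of the 10 core clock genes on each array, grouped as 8 h after PH, 2, 4 and 12 weeks, with a circle for the first array, a triangle for the second and a line for the mean of a group. The Bmal1 levels after PH (5.40 and 5.89) lie below all others, the Nr1d1 levels at 4 weeks (10.33 and 10.09) above all others, and the circle and triangle at 12 weeks lie far apart for Npas2, Dbp, Per2 and Per3.

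Among the activators, Bmal1, which encodes the shared partner of the activating pair, had levels of 5.40 and 5.89 on the PH arrays. It had 8.04 and 8.39 at 2 weeks, 7.65 and 7.25 at 4 weeks and 8.78 and 7.10 at 12 weeks. Both PH arrays lay below the other 6. The 12-week arrays spanned the levels of both younger groups, which did not overlap with each other. The fitted difference was -2.30 ± 0.49 for PH against 12 weeks (log2, SE; adjusted p = 0.2628) and -1.81 ± 0.49 against 4 weeks (adjusted p = 0.2337). In a fit without both 12-week arrays, added after seeing the data, the same difference from 4 weeks had an adjusted p of 0.03352. Without the first 12-week array the difference from 12 weeks was -1.46, and without the second -3.13.

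Npas2, the relative of Clock that also pairs with BMAL1, had 5.67 and 5.56 after PH, 6.44 and 6.62 at 2 weeks, 7.80 and 7.72 at 4 weeks, and 9.30 and 5.62 at 12 weeks. The PH, 2-week and 4-week pairs were each tight and did not overlap one another, whereas the 12-week arrays held the highest level of all 8 and one between those of the PH arrays. The PH levels, the 2-week levels and the second 12-week level lay below 6.75, the median of all gene means, where RMA compresses changes. Levels below 6.75 were also read for Bmal1 after PH, Cry1 at 4 weeks and Per3 on the first 12-week array. For Per2 they were read at 4 weeks, on the second 2-week array and on the first 12-week array. Npas2 differed by -2.15 ± 0.93 between PH and 4 weeks (adjusted p = 0.488) and by -1.23 ± 0.93 between 2 and 4 weeks (adjusted p = 0.8938). In the fit without the 12-week arrays these adjusted p became 0.009086 and 0.04607. For PH against 12 weeks the difference of -1.85 ± 0.93 (adjusted p = 0.9193) became -0.01 without the first 12-week array and -3.69 without the second. The difference of 2 from 12 weeks was -0.93 ± 0.93 (adjusted p = 0.8159), with 0.91 without the first 12-week array and -2.77 without the second. That of 4 from 12 weeks was 0.30 ± 0.93 (adjusted p = 0.9994), with 2.14 without the first and -1.54 without the second. In both, the direction turned on which 12-week array was left out. With 1 array left at 12 weeks, the spread comes from the other groups alone, so only the sizes are given.

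Clock itself moved little. Its levels were 8.77 and 8.53 after PH, 8.61 and 8.53 at 2 weeks, 8.65 and 8.35 at 4 weeks, and 9.23 and 8.62 at 12 weeks. Each neighbouring pair of groups in the order of its means overlapped, and its fitted differences ran from -0.42 to 0.15.

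Of the nuclear receptors of the second loop, Nr1d1, the repressor of Bmal1, had 9.98 and 9.04 after PH and 7.26 and 6.92 at 2 weeks. It had 10.33 and 10.09 at 4 weeks and 6.99 and 7.56 at 12 weeks. The order was 4 weeks, PH, 12 weeks and 2 weeks. The 2- and 12-week arrays overlapped, and the 4-week and PH arrays did not overlap with each other or with them. Nr1d1 rose by 2.94 ± 0.35 at 4 weeks against 12 weeks, a factor of 7.66 (limma, adjusted p = 0.02579). At 2 weeks against 4 weeks it fell by 3.12 ± 0.35 (adjusted p = 0.009586). The difference of 2.24 ± 0.35 between PH and 12 weeks had an adjusted p of 0.1165. Between PH and 4 weeks it was -0.69 ± 0.35 (adjusted p = 0.5826).

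Nr1d1 was also the member called by the F test for any difference among the 4 groups (adjusted p = 0.006946). It passed that test in all 17 settings tried, with adjusted p from 0.001359 to 0.04293. Its 2 pairwise calls were less stable. The call for 4 against 12 weeks was lost in the 6 fits that left out a 2-, 4- or 12-week array (adjusted p from 0.05062 to 0.202) and with array weights (0.1244). The call for 2 against 4 weeks was lost without the second 2-week array (adjusted p = 0.0848) and without the first (0.09941) or the second (0.07363) 4-week array.

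Nr1d2, the second REV-ERB gene, had 9.42 and 8.79 after PH, 8.61 and 8.32 at 2 weeks, 8.83 and 9.24 at 4 weeks, and 6.75 and 8.51 at 12 weeks. The first 12-week array held the lowest level and stood apart, while the second lay between the 2-week levels. Nr1d2 differed from 12 weeks by 1.47 ± 0.52 after PH (adjusted p = 0.6603) and by 1.40 ± 0.52 at 4 weeks (adjusted p = 0.9057). Without the first 12-week array these differences were 0.59 and 0.52.

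Dbp, the output factor, had 11.17 and 10.46 after PH, 9.17 and 8.41 at 2 weeks, 9.51 and 9.53 at 4 weeks, and 7.09 and 9.77 at 12 weeks. Both PH arrays lay above the other 6. Its fitted differences were 2.39 ± 0.73 for PH against 12 weeks (adjusted p = 0.5249) and 1.30 ± 0.73 against 4 weeks (adjusted p = 0.6322). The first of these was 1.05 without the first 12-week array and 3.73 without the second. For 4 against 12 weeks the difference of 1.09 ± 0.73 (adjusted p = 0.9994) changed sign to -0.25 without the first 12-week array and was 2.43 without the second.

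Among the inhibitors, Per1 had 8.21 and 7.22 after PH, 6.85 and 7.94 at 2 weeks, 8.44 and 7.41 at 4 weeks, and 7.82 and 7.13 at 12 weeks. It spread by about as much within groups as between them, all groups overlapped, and no fitted difference reached 1. Per2 had 7.14 and 7.0 after PH, 7.48 and 6.43 at 2 weeks, 6.44 and 5.83 at 4 weeks, and 6.44 and 8.66 at 12 weeks. The second 12-week array was the highest of the 8, and the difference of -1.42 ± 0.65 for 4 against 12 weeks (adjusted p = 0.9994) was -0.31 without that array and -2.52 without the first.

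Per3, the third period gene, had 8.42 and 7.91 after PH, 8.70 and 7.37 at 2 weeks, 7.62 and 7.63 at 4 weeks, and 5.56 and 8.52 at 12 weeks. The first 12-week array stood below the other 7, and without it the difference of PH from 12 weeks turned from 1.12 ± 0.83 (adjusted p = 1) to -0.36. Cry1, which encodes a cryptochrome that acts with the PER proteins, had 7.58 and 7.39 after PH, 7.49 and 7.20 at 2 weeks, 5.96 and 6.41 at 4 weeks, and 7.29 and 7.92 at 12 weeks. The 4-week arrays lay below the other 6, which overlapped. At 4 weeks Cry1 differed from 12 weeks by -1.42 ± 0.29 (adjusted p = 0.2679). Set against 4 weeks it differed by 1.30 ± 0.29 after PH (adjusted p = 0.1399, or 0.04633 with array weights) and by 1.16 ± 0.29 at 2 weeks (adjusted p = 0.2293).

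By comparison, the calls came to few. For PH against 12 weeks 0 of 10 members were called in limma, where 0.0345% of all genes were, and 4 members had an unadjusted p under 0.05, where 6.01% of genes did. Against 4 weeks PH gave 0 calls (background 0.310%) and 3 members with an unadjusted p under 0.05 (10.2% of genes). Rats of 2 weeks against those of 12 weeks gave 0 calls (background 2.23%) and 0 with an unadjusted p under 0.05 (11.1% of genes). At 4 against 12 weeks 1 was called, Nr1d1 higher (background 0.110%), and 3 had an unadjusted p under 0.05 (4.47% of genes). Livers of 2 against 4 weeks gave 1 call, Nr1d1 lower (background 0.455%), and 2 with an unadjusted p under 0.05 (7.24% of genes). The F test gave 1 call (background 1.79%) and 4 with an unadjusted p under 0.05 (11.0% of genes). The comparisons with 12 weeks share the 12-week arrays and those with 4 weeks the 4-week arrays.

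The sizes of the differences are given as a description. Between PH and 12 weeks, 6 of 10 members differed by at least 1 (2.60% of all genes did), and between PH and 4 weeks 4 members did (4.72%). Such a difference was seen for 0 members at 2 against 12 weeks (5.85%), 5 at 4 against 12 weeks (2.20%) and 3 at 2 against 4 weeks (3.36%). The median absolute difference of the members was 1.30 for PH against 12 weeks, while that of all genes was 0.19. The members whose arrays did not overlap between the groups numbered 4 for PH against 12 weeks (29.0% of all genes) and 7 for PH against 4 weeks (44.1%). There was 1 such member between 2 and 12 weeks (34.4%), 3 between 4 and 12 weeks (25.1%) and 6 between 2 and 4 weeks (40.2%).

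**Figure D2:**
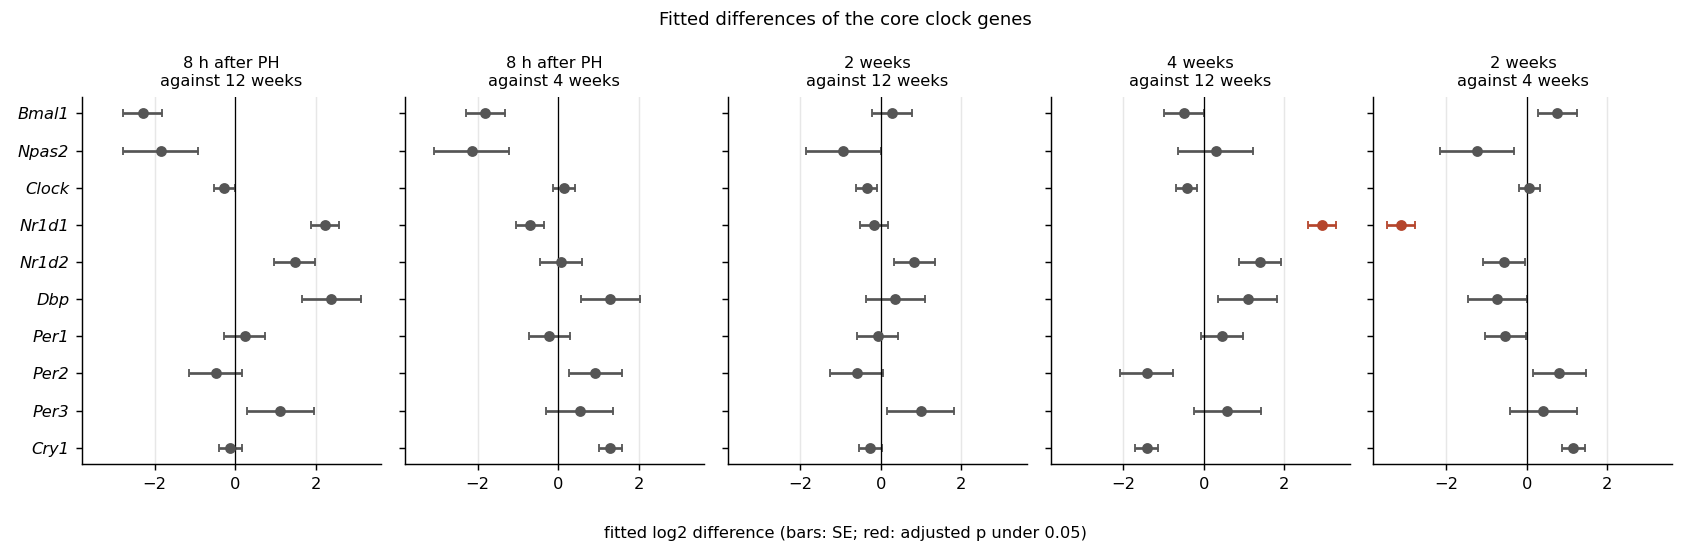
Fitted log2 differences of the 10 core clock genes (horizontal axis) in 5 comparisons, with bars for the moderated SE and red for an adjusted p under 0.05. Nr1d1 carries both red points, at 2.94 for 4 against 12 weeks and at -3.12 for 2 against 4 weeks, and Npas2 and Per3 carry the widest bars.

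The arrays within the 12-week group differed in the clock genes by more than most genes did. Npas2 read 9.30 on the first and 5.62 on the second array, a gap of 3.68 that was reached by 0.0482% of all genes. Bmal1 was also higher on the first array, by 1.67 (2.16% of genes had a gap as large). On the second array Per3 was higher by 2.96 (0.117% of genes), Dbp by 2.68 (0.255%), Per2 by 2.22 (0.524%) and Nr1d2 by 1.76 (1.72%).

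Thus 6 of 10 members had a gap of at least 1 at 12 weeks, where 12.67% of genes did, and 4 had a gap of at least 2, where 0.917% did. The activators Bmal1 and Npas2 were high on one array and the repressors and outputs Nr1d2, Dbp, Per2 and Per3 high on the other. Clock (0.61 higher on the first array), Per1 (0.69 higher), Nr1d1 (0.57 lower) and Cry1 (0.63 lower) had gaps that 27.3% to 35.9% of genes reached. In the other groups the members with such gaps numbered 0 after PH, 3 at 2 weeks (Per1, Per2 and Per3) and 1 at 4 weeks (Per1). The sizes depended on the scaling. A common 75th percentile shifted every 12-week gap by 0.36 and median centring by 0.21. Under the common percentile Per1 (1.05) also reached 1, so that 7 members did (16.1% of genes). There the gaps of Per1, Clock (0.96), Nr1d1 (-0.21) and Cry1 (-0.27) changed by more than 1.5 times. Under median centring 6 members reached 1 (13.28% of genes), and the gaps of Nr1d1 (-0.355) and Cry1 (-0.415) changed by more than 1.5 times. Each member's 12-week gap kept its sign under both.

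Other measures also differed between the 12-week arrays, and their part in the clock gap was not tested. The median gap was 0.26 over the genes with a mean below the median of all genes and -0.31 over those at or above it, first minus second array, and all 10 members belong to the second set. Macrophage markers (8 of 8 measured) averaged 9.30 on the first and 8.47 on the second array. Marco (7.94 and 5.81) and Vsig4 (8.90 and 5.98) had the largest gaps of this list. Adgre1 (7.85 and 8.16) and Cd5l (8.67 and 9.07) went the other way, so the list did not move as 1. The macrophage averages lay between 9.08 and 9.37 on the other 6 arrays. Lymphocyte markers (7 of 8 measured) averaged 5.44 and 6.24, against 4.98 to 5.56 elsewhere. Cd3g (4.70 and 6.85), Cd8a (5.94 and 7.45) and Cd2 (5.31 and 6.47) had the largest gaps. Cd3d (5.35 and 5.29) and Cd79b (6.58 and 6.57) were not higher on the second array. The hepatocyte markers averaged 13.45 and 13.39. No detection calls come with these values, so no marker can be called absent.

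Of 12 other clock components measured, 2 had a gap of at least 1 at 12 weeks, a share near the 12.67% of all genes. Bhlhe40 (DEC1), a repressor of the activating pair, read 8.85 on the first and 10.78 on the second array. Usp2, a deubiquitinase driven by the clock, read 7.16 and 8.76. The kinases Csnk1d and Csnk1e, the F-box genes Btrc and Fbxw11, Cry2, Nfil3, Bhlhe41, Timeless, Cipc and Nono had gaps between 0.08 and 0.42 in size.

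Of 9 clock-driven liver genes measured, 7 had a gap of at least 1, against the same 12.67% of all genes. Higher on the second array were Noct (Nocturnin), at 5.91 and 8.38, Wee1, a cell cycle kinase, at 5.33 and 7.44, and Gys2, the liver glycogen synthase, at 9.14 and 10.87. Por, the electron donor of cytochromes P450, read 9.28 and 10.84 there, Tef, a relative of Dbp, 7.28 and 8.80, and Alas1, which starts heme synthesis, 11.13 and 12.63. Lpin1, a phosphatidate phosphatase, ran the other way at 10.36 and 9.12. Such gaps were also seen for 1 output after PH, 3 at 2 weeks and 2 at 4 weeks, where 2.98%, 3.31% and 4.28% of genes had one. Lpin1 was among them each time, at 1.38 after PH, -2.08 at 2 weeks and 1.00 at 4 weeks (first minus second array).

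**Figure D3:**
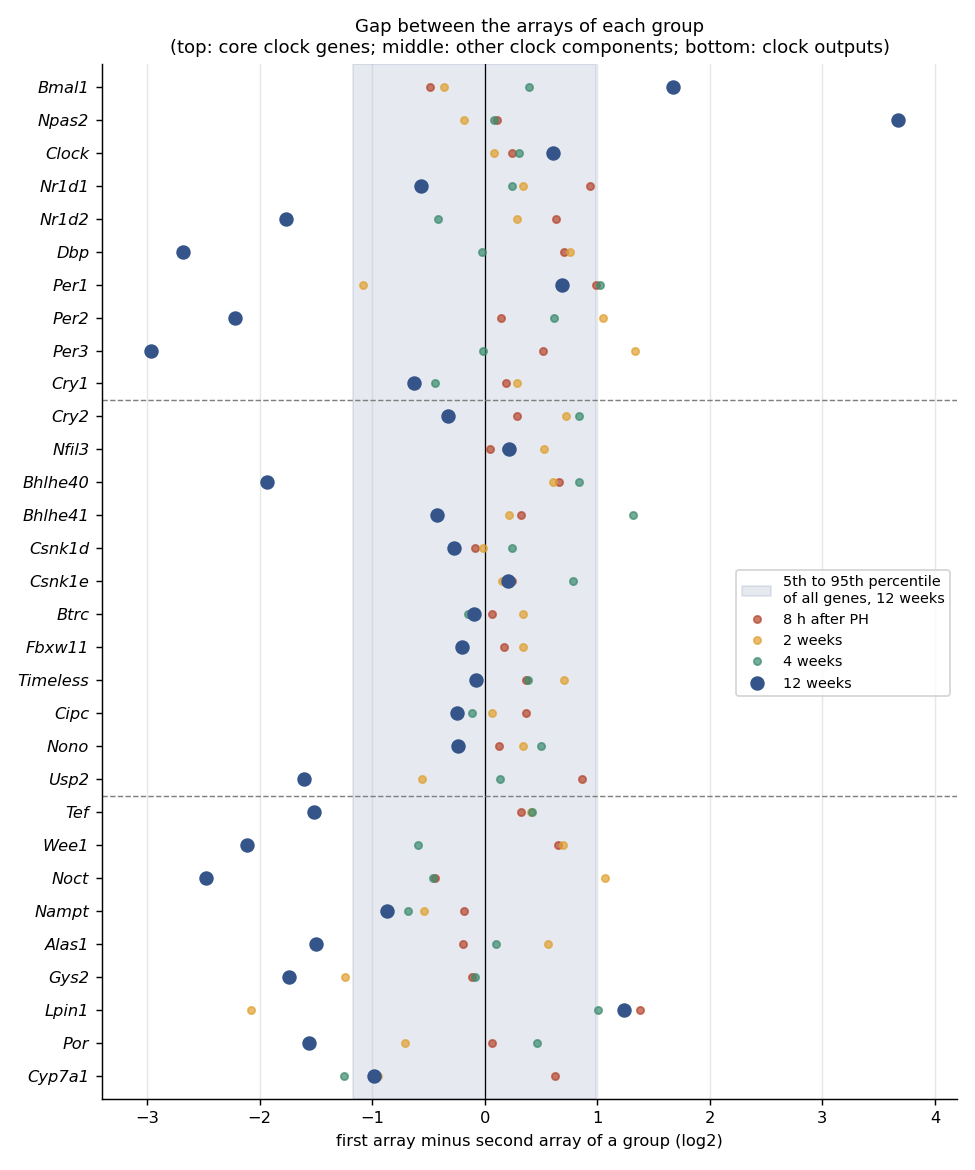
Difference between the first and the second array of each group (horizontal axis, log2) for the core clock genes (top), other clock components (middle) and clock outputs (bottom), with the shaded band from the 5th to the 95th percentile of all genes at 12 weeks (-1.17 to 0.99). The large 12-week points leave the band on the right for Bmal1, Npas2 and Lpin1 and on the left for Nr1d2, Dbp, Per2, Per3, Bhlhe40, Usp2 and 6 outputs.

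Across all arrays, Bmal1 and Dbp ran in opposite order. The array with the most Dbp had the least Bmal1, and so on through all 8 (Spearman's rho = -1, Pearson's r = -0.936). Without the 2 arrays furthest from the Dbp median, the first PH and the first 12-week array, r was -0.954 over 6. The arrays are 4 pairs normalised together, so they are not 8 independent points, and no test is given. Within pairs the array with more Bmal1 had less Dbp in all 4 groups. At 4 weeks, however, the Dbp gap was only -0.02 and turned to 0.05 with arrays scaled to a common 75th percentile, which leaves 3 groups.

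The difference between the Bmal1 and Dbp levels, read only for how it moved, was -5.77 and -4.58 after PH, -1.13 and -0.01 at 2 weeks, -1.86 and -2.28 at 4 weeks, and 1.69 and -2.66 at 12 weeks. The 12-week arrays lay far apart on this measure, the second of them beside the 4-week pair. Npas2 and Per3 were also opposed (r = -0.843, rho = -0.714, and r = -0.707 without the first arrays of 2 and 12 weeks). Bmal1 and Nr1d1 were less so (r = -0.629, rho = -0.595). Without the 4-week pair, a whole group in which Nr1d1 was high and Bmal1 intermediate, r was -0.962 over 6 arrays. For Bmal1 and Nr1d2 r was -0.712, and it weakened to -0.403 without the first PH and the first 12-week array. The 2 arrays left out were again those furthest from a median, here that of Per3, Nr1d1 or Nr1d2. Bmal1 and Per3 had r = -0.565, and Npas2 and Nr1d1 had r = -0.07. Within pairs, the gaps of Npas2 and Per3 were opposite in 3 of the 4 groups, or in 2 with the common 75th percentile.

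**Figure D4:**
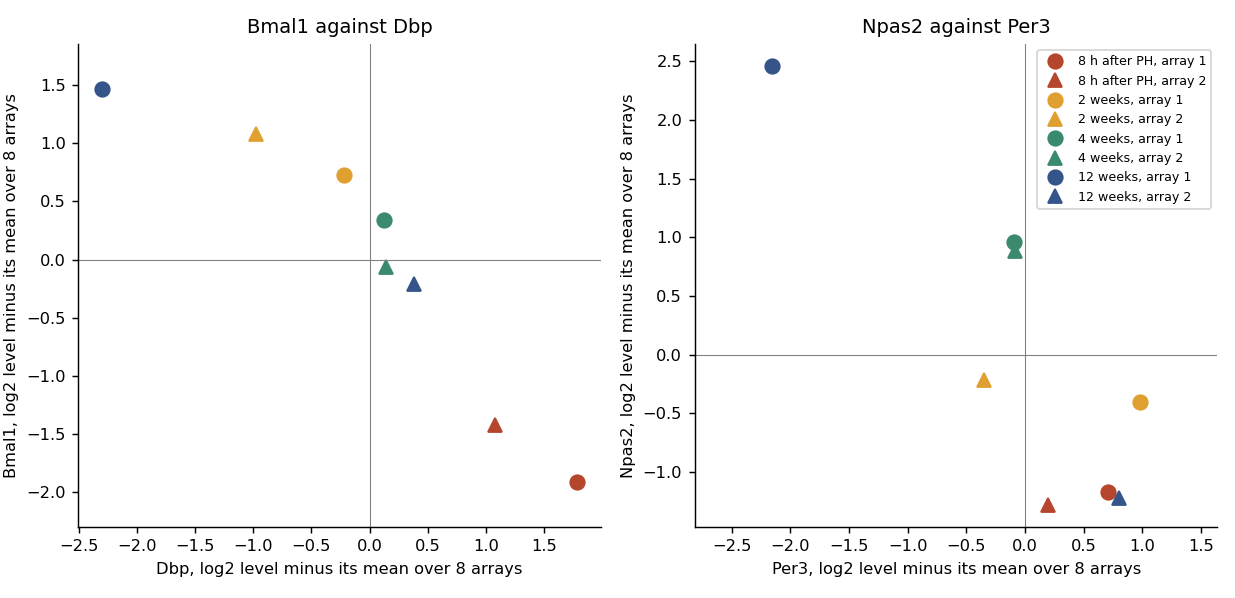
Levels of Bmal1 against Dbp (left) and Npas2 against Per3 (right), each as log2 level minus the mean of that gene over the 8 arrays, coloured by group with a circle for the first and a triangle for the second array. On the left the arrays fall along a descending line from the first 12-week array to the first PH array, and on the right the 12-week arrays stand at opposite ends.

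Of the 7255 other genes at or above the median level, Bmal1 was the one most opposed to Dbp over the 8 arrays. The genes next in that ranking were Abhd16a (r = -0.897), Thap4 (-0.893), Tubb2a (-0.877) and Utrn (-0.869), and those most like Dbp were C4bpa (0.962, or 0.769 with median-centred arrays), Cdk11b (0.956), Ccar1 (0.933), Eogt (0.921) and Srpra (0.920). Most like Bmal1 were Abhd16a (0.926), Utrn (0.922), Coq8a (0.913), Thap4 (0.903) and Agfg2 (0.898), and most opposed were Trabd (-0.981), C4bpa (-0.970), Ccdc25 (-0.965), Uggt1 (-0.954) and Timd2 (-0.944). For Nr1d1 the nearest were Vmac (0.915), Lcn2 (0.897), Cdk8 (0.892), Sgf29 (0.887) and Zfp386 (0.879), and the most opposed Wbp1l (-0.951), Flvcr2 (-0.930), Ralgps2 (-0.884), Apoc2 (-0.876) and Mdh2 (-0.860). With median-centred arrays other values also fell in size, such as Abhd16a (0.778) and Thap4 (0.814) with Bmal1 and Wbp1l (-0.819) with Nr1d1. Some grew, such as Bmal1 with Dbp (-0.976) and Lcn2 with Nr1d1 (0.905). Among so many genes and 8 arrays, values of this size are a ranking and carry no test.

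The wider clock lists gave few calls between groups. Of the 12 other components 0 were called in limma, in any of the 5 comparisons or by the F test. Of all genes, 0.0345% to 2.23% were called. Per comparison, 1 to 3 components had an unadjusted p under 0.05, where 4.47% to 11.1% of all genes did. Nfil3 (E4BP4), a repressor that opposes DBP on D-box sites, had 9.09 and 9.04 after PH, 8.68 and 8.16 at 2 weeks, 8.02 and 7.83 at 4 weeks, and 9.34 and 9.12 at 12 weeks. The 4-week arrays held its lowest levels, and it differed at 4 from 12 weeks by -1.30 ± 0.25 (adjusted p = 0.2197) and after PH from 4 weeks by 1.13 ± 0.25 (adjusted p = 0.1377). Bhlhe41 (DEC2) differed from 12 weeks by 1.44 ± 0.40 after PH (adjusted p = 0.4563) and by 1.32 ± 0.40 at 4 weeks (adjusted p = 0.6979, and 0.66 without the first 4-week array), at levels between 4.10 and 6.29.

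Of the 9 outputs, 1 was called, Cyp7a1, in both comparisons of 2 weeks and by the F test. Of all genes, 2.23% were called at 2 against 12 weeks, 0.455% at 2 against 4 weeks and 1.79% by the F test. A difference of at least 1 was seen for 3 outputs for PH against 12 weeks (2.60% of all genes) and 4 for PH against 4 weeks (4.72%). So it was for 3 at 2 against 12 weeks (5.85%), 1 at 4 against 12 weeks (2.20%) and 4 at 2 against 4 weeks (3.36%). In the same order, 3, 4, 2, 0 and 2 outputs had an unadjusted p under 0.05 in limma (4.47% to 11.1% of genes). Cyp7a1, which opens the main path of bile acid synthesis, read 12.19 and 11.56 after PH, 6.58 and 7.53 at 2 weeks, 11.56 and 12.82 at 4 weeks and 11.21 and 12.20 at 12 weeks. The 2-week arrays lay far below the rest, and Cyp7a1 fell by 5.14 ± 0.52 at 2 weeks against 4 weeks (limma, adjusted p = 0.005118). Nampt, which makes a precursor of NAD, had 11.18 and 11.36 after PH, 9.11 and 9.65 at 2 weeks, 8.95 and 9.63 at 4 weeks, and 9.21 and 10.08 at 12 weeks. The PH arrays lay above the other 6, and Nampt differed from 4 weeks by 1.97 ± 0.36 (adjusted p = 0.09417, and 0.03607 in the fit without the 12-week arrays) and from 12 weeks by 1.62 ± 0.36 (adjusted p = 0.2964).

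Gys2 differed by 1.48 ± 0.56 for PH against 12 weeks (adjusted p = 0.7269) and by 1.54 ± 0.56 for PH against 4 weeks (adjusted p = 0.385). At 2 weeks it differed by 1.82 ± 0.56 from 12 weeks (adjusted p = 0.2069) and by 1.88 ± 0.56 from 4 weeks (adjusted p = 0.3916). Without the first 12-week array its differences from 12 weeks were 0.62 after PH and 0.95 at 2 weeks, and without the second 2.35 and 2.69. Lpin1 (fitted differences of -2.41 between PH and 4 weeks, 1.42 between 4 and 12 weeks and -1.12 between 2 and 4 weeks), Por (1.11 for PH against 12 weeks and 1.16 against 4 weeks) and Wee1 (1.20 for 2 against 12 weeks and 1.17 against 4 weeks) also passed 1 in size, with adjusted p from 0.3103 to 0.9994.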

How the data were processed

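Per the submitters' processing notes, the authors computed the deposited log2 values in Affymetrix Expression Console by RMA, which removes background, gives all arrays 1 distribution and condenses each probe set to 1 value. The sources used here name neither versions nor filters. The table held 29214 probe sets with values from 1.32 to 14.23. The platform annotation gave 1 symbol to 15316 of them, several to 317 and none to 13581, which are unnamed here. A gene with several probe sets (528 of 14511 genes) was represented by the one with the highest mean. Samples were grouped by title. One limma 3.58.1 model (R 4.3.3; lmFit and eBayes, 4 residual and 4.27 prior degrees of freedom) of the 4 groups over the 8 arrays gave 5 contrasts and a moderated F test. P-values were two-sided and adjusted by Benjamini-Hochberg over 14511 genes, and a gene was called under 0.05. The model was tested on simulated data. The number of arrays limits the precision. With 2 arrays a group, an exact permutation test of 1 gene cannot go below p = 0.333.

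The 10 members and the lists were chosen with earlier results of these data known, so counts over a list describe it. The wider lists gave values for 12 other clock components and 9 liver outputs, and their other genes were not analysed here. Fitted differences are given for genes that reached 1 in size in a comparison. Likeness of pattern was Pearson's r over the 8 arrays among genes whose mean was not below the median, with 5 genes named at each end. Alternatives were median centring, a common 75th percentile, the replicate number as a block, a filter on dim genes, mean probe sets, array weights, a trended and robust spread, each array left out, and, added later, no 12-week arrays. The other marker lists were also measured and their averages over the 8 arrays ran from 5.62 to 8.87 for erythroid (6 of 8 genes measured), 4.89 to 7.63 for neutrophil (7 of 8), 7.59 to 9.29 for stellate and fibroblast (8 of 8), 8.84 to 9.45 for endothelial (5 of 7) and 5.97 to 7.79 for cholangiocyte markers (4 of 5).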

Additional observations from a re-analysis of the deposited data

How the results depend on the processing

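Without 1 array, the clock genes called ran from 0 to 3 for PH against 12 weeks, 0 to 2 for PH against 4 weeks, 0 to 1 for 2 and for 4 against 12 weeks, 0 to 2 for 2 against 4 weeks and 1 to 5 in the F test. Without both 12-week arrays 2 were called for PH against 4 weeks (Bmal1 and Npas2), 2 for 2 against 4 weeks (Npas2 and Nr1d1) and 4 in the F test (Bmal1, Npas2, Nr1d1 and Dbp), where the spread no longer includes that pair. In a fit without 1 array, the spread likewise no longer includes the group of that array. Array weights called 1 for PH against 4 weeks (Cry1), 0 for 4 against 12 weeks and 2 in the F test (Bmal1 and Nr1d1). The replicate number as a block called 1 for PH against 12 weeks (Nr1d1, adjusted p = 0.03984) and 2 in the F test (Bmal1 and Nr1d1), and Gys2 for 2 against 12 weeks then had an adjusted p of 0.04386. The first-minus-second differences of 2 groups correlated over genes at 0.0229 for 2 and 12 weeks and between 0.181 and 0.568 for the other 5 pairs of groups. With only 2 numbers, and none tied by the titles to a shared animal, batch or day, the numbers were not taken as pairs, and whether they mark one is not settled. Scaling, the dim filter, mean probe sets and the trended spread left all 6 counts of clock genes as they were. Without the first 12-week array the sign turned for Per3 after PH against 12 weeks (-0.36, with 2.60 at the other end of the fits without 1 array) and for Dbp at 4 against 12 weeks (-0.25, with 2.43). For Npas2 it turned at 2 against 12 weeks without the first 12-week array (0.91, with -2.77 at the other end) and at 4 against 12 weeks without the second (-1.54, with 2.14). The other fitted differences of at least 1 named for clock genes reversed in no setting. Median centring moved the median difference of all genes to 0.11 for PH against 4 weeks and to -0.13 for 2 against 12 weeks, where the common percentile gave -0.12.

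Over all genes the counts moved more. For PH against 12 weeks 5 became 13 with median centring, 9 with the common 75th percentile, 41 with the block, 2 with array weights and 1 to 11 without 1 array. For PH against 4 weeks 45 became 68, 90, 143 and 159 in the same order, 6 to 132 without 1 array and 132 without the 12-week pair. For 2 against 12 weeks 323 became 515 with the block, 181 with weights and 101 to 382 without 1 array. For 4 against 12 weeks 16 became 30, 10 and 5 to 24, for 2 against 4 weeks 66 became 129, 116 and 26 to 110 (110 without the 12-week pair), and for the F test 260 became 486, 403 and 86 to 367. The cause was not tested. No probe set had a detection call, so how far signal over background limits the low levels of Bmal1 and Npas2 is unknown.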
